A study of Mus musculus with 6 samples.

Results

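Chemokine ligands are small secreted or membrane-tethered proteins that direct the migration of leukocytes, and their transcripts were examined in mammary epithelial cells (MECs). The set was every protein-coding row of the count table whose symbol begins with Ccl or Cxcl and a number, or is Cx3cl1 or Xcl1. This gave 45 rows of the 55487 in the table. Of these, 30 were detected, meaning a summed raw count of at least 30 over 6 mice, and 28 of the 30 had enough counts to be fitted, among 17165 genes in all.

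The MECs came from 3 wild-type (WT) and 3 IL-21isoTg mice, with 1 RNA library each. All were BALB/c virgin females of 10 weeks at a randomized stage of the estrous cycle. The transgene of IL-21isoTg mice encodes a membrane-bound isoform of interleukin-21 and is expressed in T cells, and wild-type mice carried no transgene. MECs were the cells that remained after magnetic removal of cells bearing CD45, CD31 or CD140a, which mark leukocytes, endothelium and fibroblasts. Since each library came from a separate mouse, p-values measure the spread between these mice.

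Chemokines are grouped by the spacing of their first cysteines into CXC, CC, CX3C and XC families, and they act through G protein-coupled receptors on leukocytes. CXC ligands with a Glu-Leu-Arg motif act on Cxcr2 and attract neutrophils, interferon-inducible CXC ligands attract T cells through Cxcr3, and CC ligands attract monocytes, eosinophils, dendritic cells and lymphocytes. Epithelia make several of them. In the lactating mammary gland Ccl28 is known for drawing IgA-secreting plasma cells.

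The libraries held 15902886 to 25719244 counts, of which 17715 to 45588 lay on chemokine ligands. Levels are given as CPM, with library sizes adjusted by the trimmed mean of M-values (TMM). A count of 3, taken as the floor, equals 0.112 to 0.280 CPM and covers counting error only. Luminal markers summed to 6018 to 7006 CPM in wild-type and 5159 to 8546 CPM in IL-21isoTg mice. Genes of the salivary gland, 12 listed, took 6.46 to 22.2% of counts in wild-type and 4.80 to 39.6% in IL-21isoTg mice, with IL-21isoTg 3 the highest (95% exact Clopper-Pearson intervals within 0.024 percentage points). Fibroblast markers summed over 7 genes did not overlap between genotypes, at 1978 to 3442 CPM in wild-type and 4307 to 4960 CPM in IL-21isoTg mice. As single genes, Col1a1, Col1a2, Col3a1 and Lum did not overlap, with log2 fold changes of 1.02, 0.85, 0.92 and 0.40 (adjusted p 0.795 to 0.809 by edgeR). Dcn, Pdpn and Pdgfra did overlap, with log2 fold changes of −0.27, −0.06 and 0.57. Markers of removed leukocytes overlapped, with 7 leukocyte and macrophage genes at 168 to 227 CPM in wild-type and 152 to 370 CPM in IL-21isoTg mice, 6 T cell genes at 5.14 to 7.15 and 6.85 to 8.86 CPM, 5 B cell genes at 6.15 to 33.8 and 15.9 to 34.0 CPM, and 5 dendritic cell genes at 7.78 to 12.5 and 8.23 to 10.6 CPM. The leukocyte sum was mostly Cd14, while Itgam, which defines myeloid cells, had 0 counts in 3 of 6 mice. The part of these other cells in the chemokine values was not tested, and in bulk RNA fewer cells of a type and less RNA per cell cannot be told apart.

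Of the 45 rows, 10 had 0 counts in every mouse. They were Ccl26, which encodes an eotaxin, and 9 rows for Ccl21 genes or for second copies of Ccl19, Ccl21a, Ccl21b and Ccl27a, some of them on unplaced scaffolds. Another 5 rows stayed below the limit. These were Ccl12 with 14 counts over all mice, Xcl1 and Ccl27b with 6 each, Ccl24 with 3 and Ccl1 with 1. Just inside the limit were Ccl6 with 42 counts and Ccl17 with 58, both too low to be fitted. Ccl12 was the member just outside it.

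Per kilobase of exon, 11 detected ligands had a mean above 20 CPM, 14 lay between 1 and 20 CPM, and 5 were below 1 CPM. Cxcl1 led with a mean of 546 CPM per kilobase. Its lowest mouse, at 373 CPM per kilobase, was above the highest mouse of every other ligand, which was 157 CPM per kilobase for Ccl21a in IL-21isoTg 1. From there on, neighbours in the order had overlapping ranges over mice. Cxcl14 had a mean of 79.0 CPM per kilobase (46.9 to 141 over mice), Cxcl17 67.5 (23.4 to 102), Cxcl2 49.6 (27.0 to 88.4), Ccl21a 45.5 (8.36 to 157), Ccl2 45.4 (13.4 to 92.2), Cxcl16 37.1 (21.9 to 57.2) and Cx3cl1 35.9 (27.1 to 41.3). Cxcl1 alone made up 26.9 to 46.1% of the summed CPM of all chemokine ligands in a mouse.

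**Figure D1:**
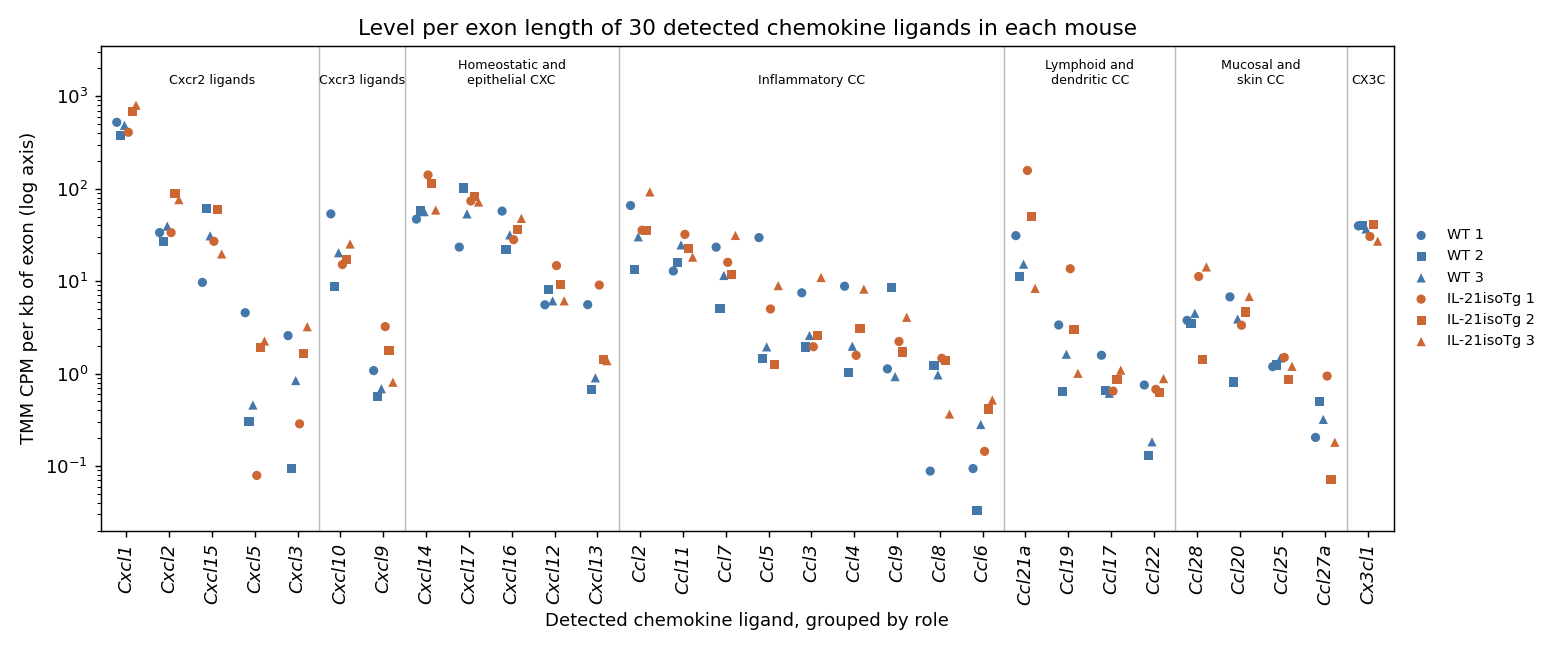
TMM CPM per kilobase of exon (log axis) of the 30 detected chemokine ligands, with 1 point per mouse, wild-type mice in blue and IL-21isoTg mice in orange, grouped by role. Cxcl1 stands above all other ligands in every mouse, and Ccl5, Cxcl5 and Ccl21a spread widely between mice of the same genotype.

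The question the 2 genotypes address is whether T cell expression of the IL-21 isoform goes with other transcript levels in MECs before tumours appear. No chemokine ligand had an adjusted p under 0.05 in edgeR's quasi-likelihood test (Benjamini-Hochberg over all genes), in either direction (0 of 28, against a background of 0% of all genes in each direction). The adjusted p of the 28 ligands ran from 0.809 to 0.996. At an unadjusted p under 0.05, 3 ligands were higher in IL-21isoTg mice (background 3.19% of all genes) and 0 were lower (background 2.63%), and these were Cxcl14, Cxcl2 and Cxcl9. On the TMM scale, mice of the genotypes did not overlap for 1 ligand, Cxcl14, which was higher in all IL-21isoTg mice. The background for this was 5.54% of all genes for higher, 6.54% for lower and 12.1% for either direction. DESeq2 also called 0 ligands, with a smallest adjusted p of 0.232, where it called 0.437% of genes higher and 0.0546% lower.

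The fold changes were unevenly placed around 0 without any ligand passing the test. The log2 fold change of IL-21isoTg over wild-type was above 0 for 22 of 28 ligands, against 47.9% of all genes tested, and its median was 0.45, against −0.02 over all genes. With 1 mouse left out, 17 to 23 of the 28 were above 0 (17 without IL-21isoTg 3 and 18 without WT 2), and with the salivary gland share as a covariate 19 were. The median was 1.03 without WT 1, and between 0.30 and 0.51 without any of the other 5 mice. Summed over all 45 rows, chemokine ligands reached 1294, 1081 and 1148 CPM in wild-type mice 1 to 3 and 1443, 1697 and 1652 CPM in IL-21isoTg mice 1 to 3. These sums did not overlap on the TMM scale, nor as CPM of a total without salivary gland genes (1413 to 1655 in wild-type, 1727 to 2079 in IL-21isoTg mice). As a percentage of all counts they overlapped, at 0.127 to 0.132% in wild-type and 0.111 to 0.198% in IL-21isoTg mice. Both other scales were added after seeing the data.

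**Figure D2:**
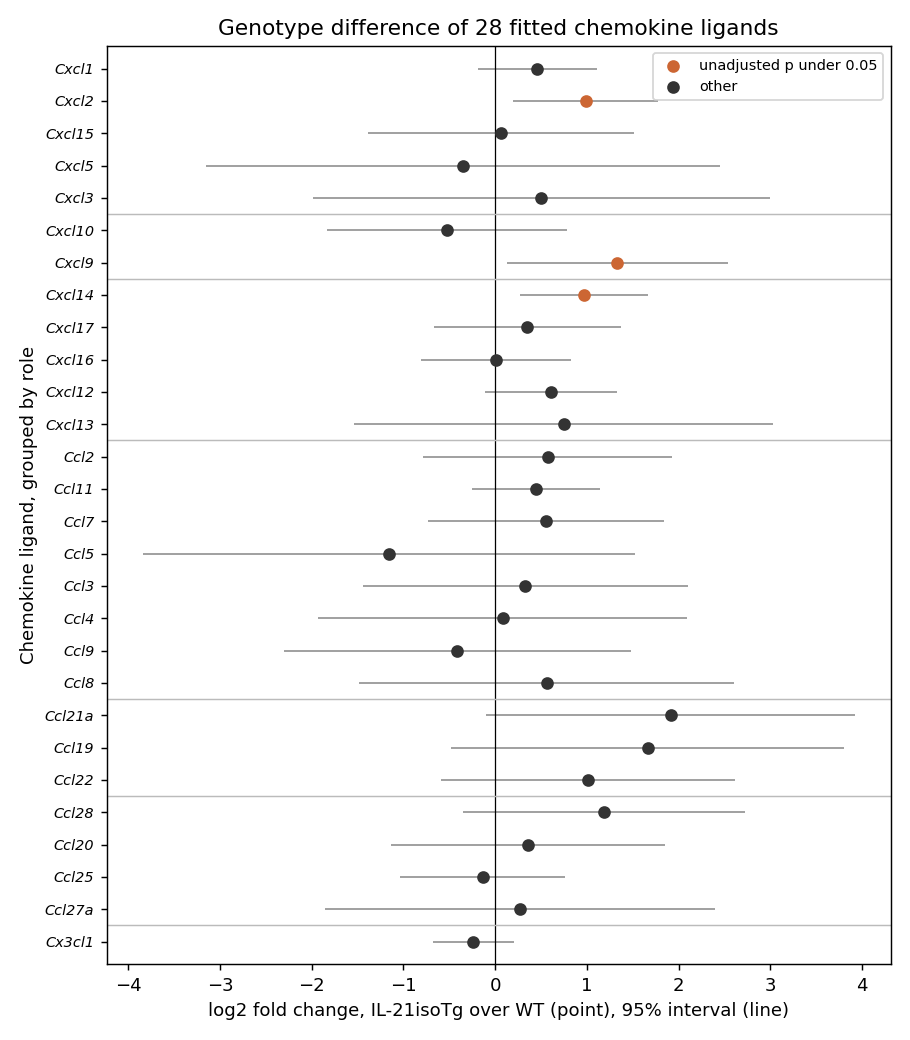
Log2 fold change of IL-21isoTg over wild-type mice (points) with 95% intervals from edgeR's quasi-likelihood fit (lines) for the 28 fitted chemokine ligands, grouped by role, with an unadjusted p under 0.05 in orange. The points of 22 ligands lie above 0, and the intervals of all but Cxcl2, Cxcl9 and Cxcl14 include 0.

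Ligands of the neutrophil receptor Cxcr2 included Cxcl1, the ligand of highest level. Their 5 genes, Cxcl5, Cxcl3, Cxcl15, Cxcl1 and Cxcl2, lie on the plus strand within 147 kb of chromosome 5 (GRCm38 chr5:90759360-90905938), and all 5 were detected and fitted. Proximal promoters of Cxcl1, Cxcl2 and Cxcl3 are shown because these neighbours share a motif for the transcription factor NF-kB and yet differed in level. The letters GGGA, any 2 bases and TTCC were searched on both strands in windows of 250 bases before to 50 bases after the gene start (RefSeq, GRCm38.p6). They were found in 441 of 27025 genes (1.63%) and in 4 of the 22 detected ligands with a window (18.2%), which were Cxcl1, Cxcl2, Cxcl3 and Cxcl10. Capitals below mark the matches, which for these 3 genes are 1 match on each strand shifted by 1 base. The stretches are chr5:90891125-90891244, chr5:90903779-90903898 and chr5:90785981-90786100, all on the plus strand.
Cxcl1: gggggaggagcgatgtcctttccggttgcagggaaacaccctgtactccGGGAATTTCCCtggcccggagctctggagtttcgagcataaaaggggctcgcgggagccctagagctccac
Cxcl2: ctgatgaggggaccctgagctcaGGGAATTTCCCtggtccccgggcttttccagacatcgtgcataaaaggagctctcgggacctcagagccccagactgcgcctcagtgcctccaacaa
Cxcl3: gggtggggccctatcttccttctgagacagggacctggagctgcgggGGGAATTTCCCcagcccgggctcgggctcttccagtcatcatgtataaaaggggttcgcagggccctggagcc
In Cxcl1 the plus-strand match began 71 bases before the start, in Cxcl2 97 bases and in Cxcl3 73 bases. A match of letters is a description and not a shown binding site.

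Cxcl1 (chr5:90891241-90893115), a main neutrophil attractant, had 498, 356 and 462 CPM in wild-type mice 1 to 3 and 388, 655 and 762 CPM in IL-21isoTg mice 1 to 3. IL-21isoTg 2 and 3 were above all wild-type mice, and IL-21isoTg 1 was among them. On the log2 scale the difference was 0.46 (SE 0.28, 95% interval −0.19 to 1.11, adjusted p = 0.815).

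Cxcl2 (chr5:90903871-90905938), a close relative of Cxcl1, had 62.3, 50.1 and 73.2 CPM in wild-type and 62.2, 164 and 141 CPM in IL-21isoTg mice. The pattern was that of Cxcl1, with IL-21isoTg 2 and 3 high and IL-21isoTg 1 within the wild-type range. The mean was 61.9 ± 11.5 CPM in wild-type and 123 ± 53.6 CPM in IL-21isoTg mice (SD, n = 3 each). Its log2 fold change was 0.99 (SE 0.34, unadjusted p = 0.0207 and adjusted p = 0.809 by edgeR), and 0.72 to 1.31 without any 1 mouse.

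The other Cxcr2 ligands were given by mouse after their values were seen. Cxcl15, known as an epithelial chemokine of the lung, was highest in WT 2 (129 CPM) and IL-21isoTg 2 (125 CPM) and lowest in WT 1 (20.6 CPM), with a log2 fold change of 0.06 (95% interval −1.38 to 1.51). Cxcl3 had 2.62, 0.0961 and 0.855 CPM in wild-type and 0.291, 1.68 and 3.26 CPM in IL-21isoTg mice. As for Cxcl1, IL-21isoTg 3 was the highest mouse and WT 2 the lowest, but WT 1 was above IL-21isoTg 2. The Cxcl3 value of WT 2 rested on 2 counts, below the floor of 3, and that of IL-21isoTg 1 on 7 counts. Cxcl5 had 7.17, 0.480 and 0.720 CPM in wild-type and 0.125, 3.02 and 3.54 CPM in IL-21isoTg mice, with WT 1 the highest. Per kilobase of exon, Cxcl3 had a mean of 1.44 CPM, against 546 CPM for Cxcl1 in the same stretch of chromosome 5. The coding sequences of Cxcl2 and Cxcl3 are 89.7% identical over 300 bases.

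Most neutrophil genes were at or near the floor. The receptor Cxcr2 had 2 counts in WT 1 and 0 in the other 5 mice, and Cxcr1 had 0 in all. The 5 neutrophil markers summed to 0.0480 to 1.80 CPM in wild-type and 0.521 to 0.933 CPM in IL-21isoTg mice, and Ly6g, a defining one, had at most 2 counts in a mouse. S100a8, the only one of the 5 that was fitted, had 1 to 29 counts in wild-type and 6 to 10 in IL-21isoTg mice.

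Cxcl11, also a Cxcr3 ligand, had 84 counts over all mice, but its row is not labelled protein-coding and lies outside the set. Of the 2 Cxcr3 ligands in the set, Cxcl10 had the higher level (23.3 against 1.36 CPM per kilobase of exon) and Cxcl9 the higher fold change. Both are induced by interferon and attract activated T cells and natural killer cells. The Cxcl10 promoter is shown because it alone among these ligands held both motifs searched, the one for NF-kB above and GAAA, any 2 bases and GAAA, searched likewise, which resembles an interferon-stimulated response element. The latter was found in 1079 of 27025 genes (3.99%) and in 3 of the 22 detected ligands with a window (13.6%), Ccl19, Cxcl10 and Cxcl14. Capitals mark the interferon-type match, from base −213, and the NF-kB match, from base −159 (chr5:92348890-92349109, minus strand, GRCm38.p6, RefSeq).
Cxcl10: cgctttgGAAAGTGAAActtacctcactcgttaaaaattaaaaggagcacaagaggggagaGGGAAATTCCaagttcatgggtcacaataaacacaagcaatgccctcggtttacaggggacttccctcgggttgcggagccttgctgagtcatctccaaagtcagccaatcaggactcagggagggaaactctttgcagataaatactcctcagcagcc

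Cxcl9 (chr5:92321347-92328079) had 3.11, 1.63 and 1.98 CPM in wild-type mice and 9.31, 5.14 and 2.33 CPM in IL-21isoTg mice. IL-21isoTg 1 and 2 were above all wild-type mice, whereas IL-21isoTg 3 lay between WT 3 and WT 1. The log2 fold change was 1.33 (SE 0.52, unadjusted p = 0.0345 and adjusted p = 0.809 by edgeR), and it was 0.75 without IL-21isoTg 1.

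Cxcl10 (chr5:92346638-92348889), named here after its values were seen, had 81.1, 13.3 and 30.9 CPM in wild-type mice and 22.9, 25.9 and 38.3 CPM in IL-21isoTg mice. WT 1 stood above the other 5 mice, and the sign of the difference rested on it. Its log2 fold change was −0.53 with all mice and 0.41 without WT 1. Exons of Cxcl10 share 133 bases with Art3 on the opposite strand, and the strand setting used in counting is not given in the sources used here. Ifng, an inducer of Cxcl9 and Cxcl10, had 0 counts in every mouse, which allows a level of up to the floor of 3 counts. The receptor of these 2 ligands, Cxcr3, had 5 counts in IL-21isoTg 2 and 0 in the others.

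All 5 homeostatic and epithelial CXC ligands were detected and fitted, and all 5 had a log2 fold change above 0, from 0.01 to 0.96. Summed, they reached 274 to 304 CPM in wild-type and 336 to 505 CPM in IL-21isoTg mice. Cxcl14 is expressed by epithelia at rest. Its promoter is shown because it was the ligand whose genotypes did not overlap on the TMM scale. It held no NF-kB match and 1 interferon-type match in capitals, from base −172 (chr13:56296552-56296751, minus strand, GRCm38.p6, RefSeq).
Cxcl14: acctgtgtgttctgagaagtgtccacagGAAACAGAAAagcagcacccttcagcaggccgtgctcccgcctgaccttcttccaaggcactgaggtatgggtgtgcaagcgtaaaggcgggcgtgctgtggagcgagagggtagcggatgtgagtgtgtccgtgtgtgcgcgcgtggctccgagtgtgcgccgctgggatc

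Cxcl14 (chr13:56288643-56296551) had 85.6, 105 and 103 CPM in wild-type mice and 257, 208 and 107 CPM in IL-21isoTg mice. The 3 wild-type mice lay close together, IL-21isoTg 1 and 2 were far above them, and IL-21isoTg 3 was barely above WT 2. The place of IL-21isoTg 3 above the wild-type mice rested on TMM, whose factor was 0.675 in IL-21isoTg 3 and 1.23 in WT 2. Raw counts of Cxcl14 were 1151 of 15902886 in IL-21isoTg 3. They were 1898 of 22291180 in WT 1, 2182 of 17020403 in WT 2 and 2288 of 20089303 in WT 3. Without TMM, IL-21isoTg 3 was thus below every wild-type mouse, and the genotypes overlapped. The mean was 97.8 ± 10.6 CPM in wild-type and 191 ± 76.2 CPM in IL-21isoTg mice (SD, n = 3 each). The log2 fold change was 0.96 (SE 0.30, 95% interval 0.27 to 1.66, unadjusted p = 0.0128 and adjusted p = 0.809 by edgeR). A two-sided exact permutation test gave p = 0.1, the smallest that 3 mice against 3 allow. Its log2 fold change was 0.69 without IL-21isoTg 1 and 1.26 without IL-21isoTg 3. Across the settings and tests tried, its adjusted p ran from 0.232 to 0.994.

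The mice high in Cxcl14 were also high in the sum of basal markers, though not in each of them. The 6 basal genes summed to 1329, 1767 and 1333 CPM in wild-type mice and 2642, 2282 and 1456 CPM in IL-21isoTg mice. Acta2 and Myh11 were also highest in IL-21isoTg 1 and 2, whereas in IL-21isoTg 2 Krt5 (264 CPM) and Trp63 (14.3 CPM) lay within their wild-type ranges of 131 to 307 and 9.63 to 36.6 CPM. The sum of endothelial markers was also highest in these mice, with 241 and 173 CPM in IL-21isoTg 1 and 2 and at most 134 CPM in wild-type mice. Not each marker followed, as Kdr was higher in WT 2 (47.5 CPM) than in IL-21isoTg 2 (40.8 CPM) and Prox1 was highest in WT 3. Other lists held genes of this order too. Elf5, alone among the luminal markers, had its highest values in IL-21isoTg 1 and 2. So did Col1a1, Col1a2, Lum and Pdgfra among the fibroblast markers, but not Col3a1, Dcn or Pdpn. The part of any of these cell types in the Cxcl14 values was not tested.

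Cxcl12, the stromal ligand of Cxcr4, had 39.7, 57.8 and 43.8 CPM in wild-type mice and 105, 66.5 and 43.8 CPM in IL-21isoTg mice, with a log2 fold change of 0.61 (SE 0.31, adjusted p = 0.809 by edgeR). IL-21isoTg 1 and 2 were again the highest, and without IL-21isoTg 1 the log2 fold change was 0.23. Cxcl12 was chosen for its values by mouse after these were seen.

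Cxcl17, a chemokine of mucosal epithelia, had 17.8, 77.3 and 40.6 CPM in wild-type mice and 56.0, 62.1 and 54.6 CPM in IL-21isoTg mice. All IL-21isoTg mice fell inside the wild-type range, and the log2 fold change of 0.35 (95% interval −0.67 to 1.37) became −0.023 without WT 1.

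Cxcl16, a membrane-bound ligand of Cxcr6, had 154, 59.1 and 85.4 CPM in wild-type mice and 75.9, 97.3 and 129 CPM in IL-21isoTg mice. The genotypes overlapped throughout, with a log2 fold change of 0.01 (95% interval −0.80 to 0.83). Cxcl16 shares 552 bases of exon with Zmynd15 on the opposite strand. Cxcl13, which draws B cells through Cxcr5, ran from 0.769 to 6.40 CPM in wild-type and 1.59 to 10.4 CPM in IL-21isoTg mice.

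Inflammatory CC ligands, 12 rows of which 9 were detected and 8 fitted, overlapped between genotypes as a group. Their sums were 61.2 to 117 CPM in wild-type and 73.5 to 152 CPM in IL-21isoTg mice, 6 of 8 log2 fold changes were above 0, and 0 had an unadjusted p under 0.05. Its 9 detected members and Cxcl16 lie on chromosome 11, which carried 10 detected ligands in all. Ccl2 (chr11:82035571-82037453), the main monocyte attractant through Ccr2, had 53.4, 10.9 and 24.5 CPM in wild-type mice and 28.9, 28.7 and 75.0 CPM in IL-21isoTg mice. WT 1 and IL-21isoTg 3 were the highest and WT 2 the lowest. For Ccl2 the log2 fold change was 0.57 (95% interval −0.78 to 1.93, adjusted p = 0.872), and −0.031 without IL-21isoTg 3.

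Ccl7, a neighbour of Ccl2 that also acts on Ccr2, had the same high mice, from 4.08 to 18.7 CPM in wild-type and 9.46 to 25.0 CPM in IL-21isoTg mice. Ccl11, an eotaxin that attracts eosinophils through Ccr3, ranged over 13.9 to 26.7 CPM in wild-type and 19.7 to 34.7 CPM in IL-21isoTg mice, and its log2 fold change was 0.45 (95% interval −0.25 to 1.15). Receptors for these ligands were scarce, with Ccr2 at 0 to 15 counts per mouse.

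Ccl5, a T cell and monocyte attractant, was the ligand most dominated by 1 mouse. It had 15.7, 0.769 and 1.03 CPM in wild-type mice and 2.66, 0.670 and 4.76 CPM in IL-21isoTg mice. WT 1 held 61.4% of the summed CPM. Its log2 fold change was −1.16 (SE 1.16, adjusted p = 0.870) with WT 1 and 1.56 without it. The 6 T cell markers, by contrast, summed to 6.09 CPM in WT 1, within the wild-type range of 5.14 to 7.15 CPM.

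Ccl3 and Ccl4, which also attract monocytes and T cells, ran from 1.49 to 5.73 and from 0.673 to 5.82 CPM in wild-type mice. In IL-21isoTg mice they reached 8.39 and 5.41 CPM, both in IL-21isoTg 3. Ccl9, a Ccr1 ligand picked out after its values were seen, was 25.5 CPM in WT 2 and 2.79 to 12.2 CPM elsewhere. Ccl8 and Ccl6 stayed below 1 CPM in every mouse.

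Ligands of lymphoid tissue, 4 of 12 rows detected and 3 fitted, held the 2 largest fold changes of all ligands with all 6 mice included, and neither passed the test. Without IL-21isoTg 1, both were below Cxcl2 (1.31), Ccl22 (1.06) and Cxcl3 (1.03) on the log2 scale. Ccl21a (chr4:42772860-42773993), which lymphatic endothelium and lymphoid stroma make to guide cells bearing Ccr7, had 27.0, 9.71 and 13.3 CPM in wild-type mice and 137, 43.4 and 7.27 CPM in IL-21isoTg mice. IL-21isoTg 1 was the highest and IL-21isoTg 3 the lowest of all 6 mice. For Ccl21a the log2 fold change was 1.91 (SE 0.87, 95% interval −0.10 to 3.92, adjusted p = 0.809 by edgeR), and 0.62 without IL-21isoTg 1.

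Ccl19, the other Ccr7 ligand, was chosen after its values were seen. It had 2.80, 0.529 and 1.35 CPM in wild-type mice and 11.3, 2.49 and 0.839 CPM in IL-21isoTg mice, so that IL-21isoTg 1 again stood above the rest. Its log2 fold change was 1.66, and 0.14 without IL-21isoTg 1. Lyve1, a marker of lymphatic endothelium, had 29, 25 and 60 counts in wild-type mice and 260, 55 and 11 counts in IL-21isoTg mice, with the same mouse highest and the same mouse lowest as for Ccl21a. It was picked out after its values were seen, and other lymphatic markers had another order. Prox1 ran from 3.56 to 6.88 CPM in wild-type and 2.61 to 5.06 CPM in IL-21isoTg mice and was highest in WT 3, and Flt4 was highest in IL-21isoTg 1 (9.06 CPM) but lowest in WT 1 (2.35 CPM). The 6 endothelial markers summed to 54.7 to 134 CPM in wild-type and 85.1 to 241 CPM in IL-21isoTg mice, highest in IL-21isoTg 1. The part of these cells in the Ccl21a and Ccl19 values was not tested.

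Counts of Ccl21a are uncertain for another reason. Its coding sequence of 399 bases differs at 2 positions from those of Ccl21b and Ccl21d (99.5% identity), whose rows held 0 counts, and how counting treated reads that match several of them is not given in the sources used here. Ccl22, a Ccr4 ligand made by dendritic cells, had 0.288 to 1.67 CPM in wild-type and 1.38 to 1.96 CPM in IL-21isoTg mice. Ccl17, which shares its receptor, had 0.315 to 0.812 and 0.333 to 0.560 CPM.

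**Figure D3:**
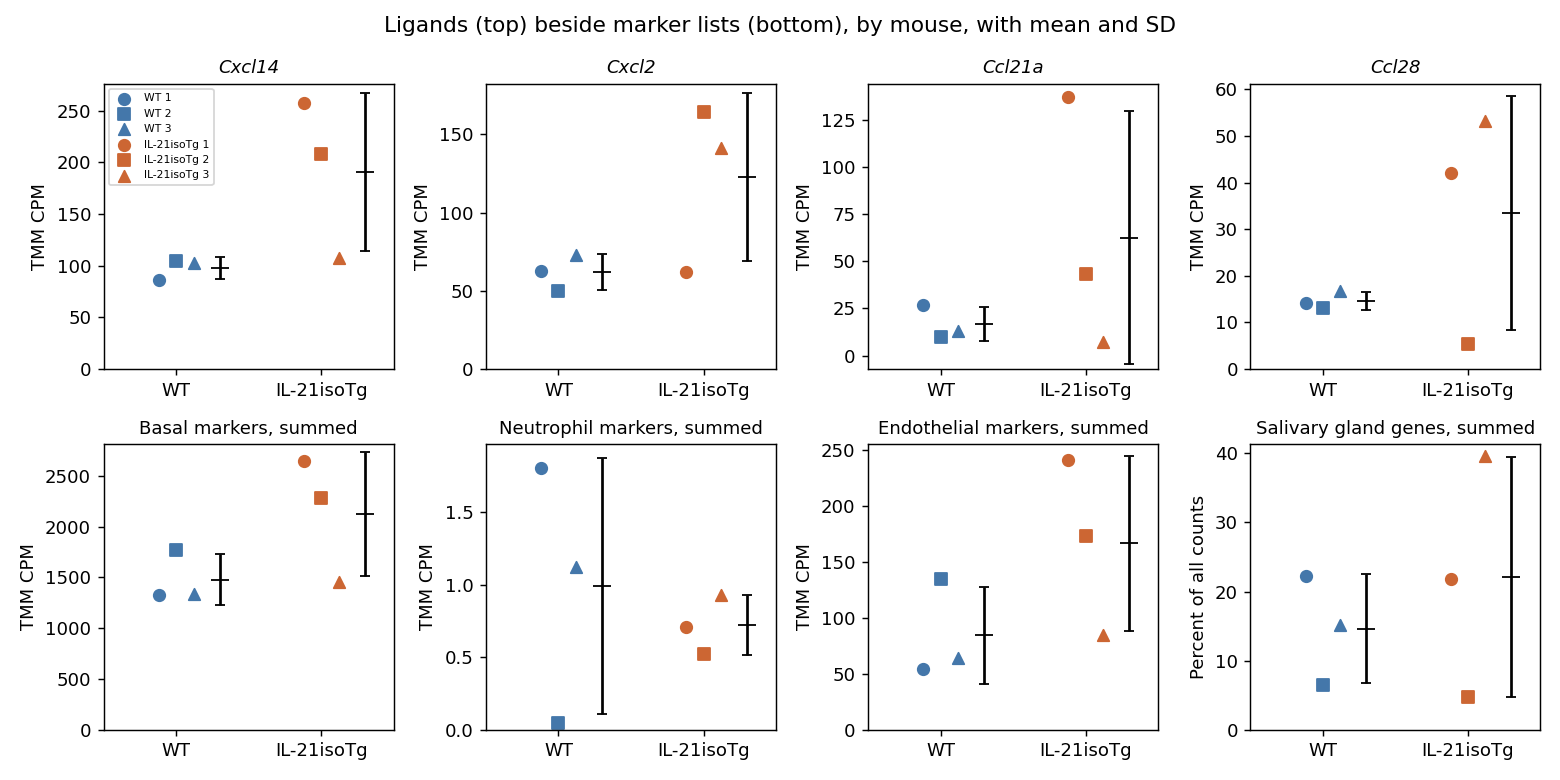
TMM CPM by mouse (points, WT in blue, IL-21isoTg in orange) with mean and SD (n = 3 each) of Cxcl14, Cxcl2, Ccl21a and Ccl28 in the upper row, each above a marker list summed over its genes in the lower row (salivary gland genes as a percentage of all counts). Ccl21a and endothelial markers are both highest in IL-21isoTg 1, Ccl28 and salivary gland genes are both highest in IL-21isoTg 3, and neutrophil markers stay at or below 1.80 CPM in every mouse.

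Among mucosal and skin CC ligands, 4 of 7 rows were detected and fitted. Ccl28 (chr13:119623819-119654359), a ligand of Ccr10 and Ccr3 made by mammary and salivary epithelium, was chosen for its values by mouse after these were seen. It had 14.1, 13.1 and 16.8 CPM in wild-type mice and 42.0, 5.29 and 53.3 CPM in IL-21isoTg mice. The wild-type mice lay close together, while IL-21isoTg 1 and 3 were above them and IL-21isoTg 2 was below. The log2 fold change was 1.19 (SE 0.67, adjusted p = 0.809 by edgeR).

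The extremes of Ccl28 lay in the same mice as those of the summed salivary gland genes. Together these genes took 22.2, 6.46 and 15.2% of counts in wild-type mice and 21.9, 4.80 and 39.6% in IL-21isoTg mice. The share was lowest in IL-21isoTg 2 and highest in IL-21isoTg 3, as was Ccl28. Not each gene followed, as Dcpp1, Dcpp2 and Dcpp3 were highest in WT 2 and lowest in WT 1. With the share of salivary gland counts as a covariate, the log2 fold change of Ccl28 was 0.20 (adjusted p = 0.965 by edgeR). WT 1 and IL-21isoTg 1 had nearly the same salivary share but 14.1 and 42.0 CPM of Ccl28. The part of salivary gland cells in the Ccl28 values was not tested.

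Ccl20, the ligand of Ccr6, ran from 1.15 to 9.61 CPM in wild-type and 4.74 to 9.70 CPM in IL-21isoTg mice. Ccl25, the ligand of Ccr9 known from gut and thymus, was the steadiest of the group at 1.85 to 2.29 and 1.34 to 2.33 CPM. Its exons share 204 bases with Elavl1 on the opposite strand. Ccl27a, a skin chemokine, ran from 0.316 to 0.769 and from 0.112 to 1.46 CPM.

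Cx3cl1 (chr8:94772009-94782427), a membrane-bound chemokine whose receptor is Cx3cr1, was the abundant ligand with the least spread. It had 140, 142 and 129 CPM in wild-type mice and 107, 146 and 95.6 CPM in IL-21isoTg mice. IL-21isoTg 1 and 3 were below all wild-type mice and IL-21isoTg 2 was above them. Its log2 fold change was −0.24 (SE 0.19, 95% interval −0.68 to 0.20, adjusted p = 0.842), and it was below 0 whichever mouse was left out.

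Which mouse was highest varied among the ligands. Of the 30 detected ligands, 10 were highest in IL-21isoTg 1, 9 in IL-21isoTg 3, 6 in WT 1, 3 in WT 2, 2 in IL-21isoTg 2 and 0 in WT 3, and 15 were lowest in WT 2. IL-21isoTg 1 was the highest mouse for 3 of the 5 homeostatic CXC ligands, and IL-21isoTg 3 for 4 of the 9 detected inflammatory CC ligands. For 11 of 28 fitted ligands (39.3%) the highest pair of mice was WT 1 and IL-21isoTg 3, which held for 10.8% of all genes tested. These 11 were Ccl2, Ccl3, Ccl4, Ccl5, Ccl7, Ccl20, Ccl22, Cxcl3, Cxcl5, Cxcl10 and Cxcl16, and this pair was picked out after the values were seen. IL-21isoTg 1 and 2 were the highest pair for 5 others, Ccl8, Ccl21a, Cxcl9, Cxcl12 and Cxcl14 (7.55% of all genes).

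**Figure D4:**
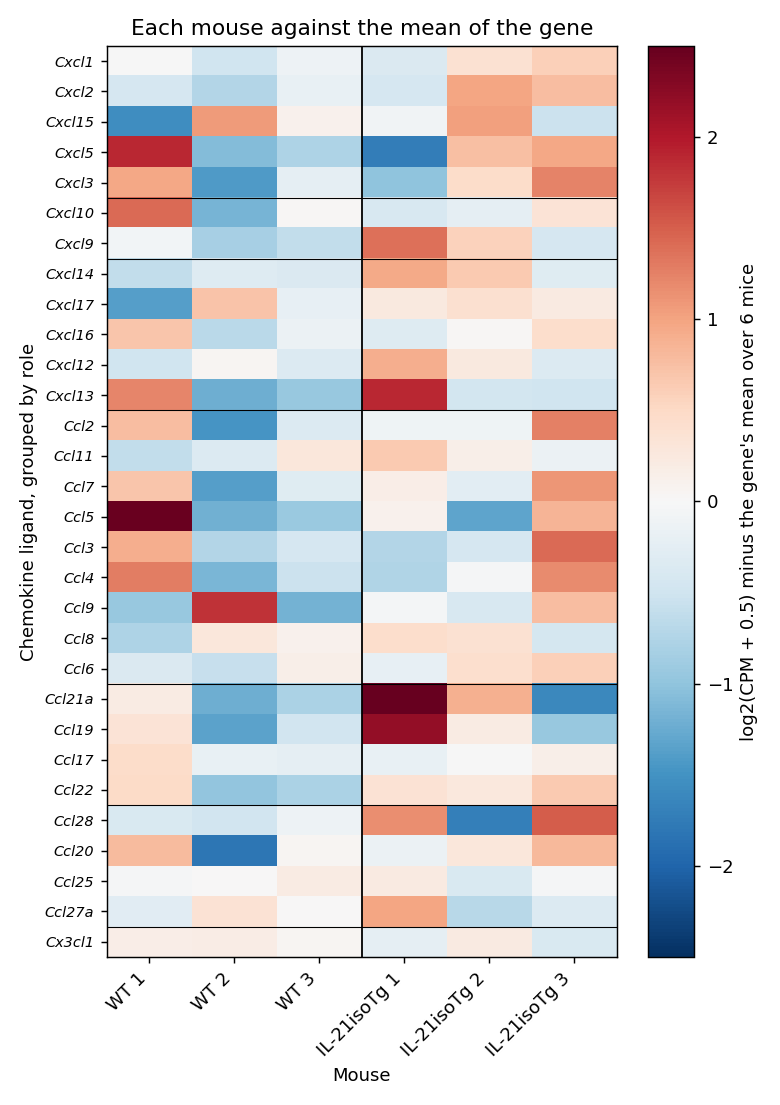
Log2(CPM + 0.5) of each detected chemokine ligand in each mouse minus the mean of that gene over 6 mice, with red above and blue below the mean and genes grouped by role. WT 1 and IL-21isoTg 3 are red together for inflammatory ligands such as Ccl2, Ccl3 and Ccl4, while WT 2 is blue for most of these.

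Receptors of the ligands had few counts in these MECs. Of 18 chemokine receptors, 10 had a summed count under 30 and 3 could be fitted, Ccr7, Ccr10 and Cxcr4, of which 0 passed the test. Cxcr4, the receptor of Cxcl12, had 5.53 to 12.2 CPM over mice. Cxcr6, the receptor of Cxcl16, and Cx3cr1 had 31 and 20 counts over all mice. All 3 fitted receptors had overlapping genotypes and a log2 fold change below 0, from −0.40 to −0.07.

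Atypical receptors, which bind chemokines without signalling to G proteins, could all be fitted, and 0 of the 5 passed the test. Ackr1, which binds many CXC and CC ligands on venular endothelium and red cells, had 6.09, 3.32 and 1.44 CPM in wild-type mice and 8.86, 10.1 and 7.27 CPM in IL-21isoTg mice. The genotypes did not overlap, and the log2 fold change was 1.27 (SE 0.48, unadjusted p = 0.0290 and adjusted p = 0.809 by edgeR). Of the endothelial markers, Cdh5 had a log2 fold change of 1.22 (unadjusted p = 0.00634, no overlap) and Pecam1 1.11 (unadjusted p = 0.0246, with overlap), both at an adjusted p of 0.809 by edgeR. Lyve1 (1.43), Kdr (0.80), Flt4 (0.71) and Prox1 (−0.38) overlapped between genotypes. The part of endothelial cells in the Ackr1 values was not tested. Ackr3, which takes up Cxcl12, ran from 16.4 to 48.0 CPM in wild-type and 30.6 to 60.8 CPM in IL-21isoTg mice.

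Of 11 genes for NF-kB and the cytokines that induce chemokines, 10 were fitted and 0 passed the test, with 3 log2 fold changes above 0. Icam1, an NF-kB target that binds leukocyte integrins, had 415, 283 and 280 CPM in wild-type and 460, 488 and 432 CPM in IL-21isoTg mice. It did not overlap between genotypes, with a log2 fold change of 0.50 (unadjusted p = 0.0455 and adjusted p = 0.809 by edgeR). Il17a had 0 counts in every mouse. Nfkb1, an NF-kB subunit, was highest in WT 1 (342 CPM) and IL-21isoTg 3 (262 CPM), as were the 11 ligands named above, and its part in their values was not tested. Nfkb1 was named after its values were seen. In the same list Relb (128 and 85.7 CPM), Il1a (4.92 and 4.29 CPM) and Il1b (2.35 and 1.03 CPM) had this same highest pair of mice. The other genes of the list with counts had another order. Rela was highest in WT 1 and IL-21isoTg 2, Nfkbia in WT 3 and Tnfaip3 in IL-21isoTg 2.

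Of 8 interferon signalling genes, 7 were fitted and 0 passed the test, with 4 log2 fold changes above 0. Irf1, an interferon-responsive transcription factor, had 186, 233 and 268 CPM in wild-type and 348, 306 and 281 CPM in IL-21isoTg mice, without overlap (log2 fold change 0.45, adjusted p = 0.809 by edgeR). The platelet chemokines Pf4 and Ppbp, whose symbols lie outside the pattern, had 95 and 0 counts over all mice.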

How the data were processed

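Poly(A)-selected RNA of MECs from 6 mice was sequenced. The authors deposited raw read counts per gene and mouse, which were used here. Per the submitters' processing notes, FastQC 0.11.7, Trimmomatic 0.38, HISAT2 2.1.0, SAMtools 1.9, featureCounts 1.6.3 and DESeq2 1.24.0 were used with build mm10. Strand setting and annotation are not given in the sources used here. Deposited size-factor-scaled values and the authors' own comparison (fold changes and p-values) were not used, apart from gene positions.

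Genes were filtered with filterByExpr (minimum count 10, minimum total 15), scaled by TMM and compared with edgeR 4.0.16 (quasi-likelihood, robust, genotype only) in R 4.3.3, with Benjamini-Hochberg adjustment over 17165 genes and calls at 0.05. DESeq2 1.42.0 and limma 3.58.1 served as alternatives, and plots used Python 3.11.15 with matplotlib 3.10.9. Exact permutation tests were two-sided on log2(CPM + 0.5). The test was checked on simulated counts. Exon lengths of protein-coding transcripts and positions came from GENCODE M21 on GRCm38, which placed 31020 of 31286 shared identifiers at the same position as the deposited comparison. Promoter windows were found for 22 of 30 detected ligands.

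Members and lists were chosen with earlier results of these data known. Values by mouse were given for ligands with an adjusted or an unadjusted p under 0.05, for those whose genotypes did not overlap at a mean of at least 1 CPM, for the 8 highest per exon length, and for any with over 60% of CPM in 1 mouse, in all 10 ligands. Genes of the receptor, NF-kB and interferon lists were named by the same thresholds. Cell type markers were not. Elf5, Oxtr, Cdh5, Pecam1, Col1a1, Col1a2, Col3a1 and Lum passed the thresholds on p or overlap without being given by mouse. Any others given by mouse were chosen after their values were seen. Alternatives were other normalizations, filters and tests, the replicate number as a block, the salivary gland share as a covariate, and leaving out each mouse. All 6 mice had depths of at least 15902886 counts, and replicates of a genotype differed by more than counting noise.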

Additional observations from a re-analysis of the deposited data

How the results depend on the processing

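Under all 17 alternatives 0 chemokine ligands were called, with a smallest adjusted p of 0.232. Over all genes, 72 were called higher and 9 lower with DESeq2, 52 and 13 with edgeR's likelihood ratio test, and 14 higher without a filter. Leaving out 1 mouse gave 0 to 6 genes higher (6 without WT 3). The replicate numbers did not pair the mice (correlations of same-numbered mice −0.224 to 0.068), and with the replicate block 0 ligands were called and 657 genes had an unadjusted p under 0.05, against 999 without it. The median log2 fold change of the ligands ran from 0.30 to 1.03 without 1 mouse and from 0.30 to 0.63 under the other alternatives.

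The sign was the same in every alternative that fitted the ligand for 13 of 28 ligands (Ccl8, Ccl19 and Ccl22 were not fitted under the filter of 10 counts in every mouse), 12 above 0 (Ccl7, Ccl8, Ccl11, Ccl19, Ccl21a, Ccl22, Ccl28, Cxcl1, Cxcl2, Cxcl9, Cxcl12 and Cxcl14) and Cx3cl1 below 0. It turned in limma-voom for Ccl3 (−0.10), Ccl9 (0.16) and Ccl27a (−0.38), with the replicate block for Ccl9 (0.35), Cxcl5 (0.68) and Ccl27a (−0.33), and with the salivary gland covariate for Ccl3 (−0.29), Cxcl16 (−0.11) and Ccl4 (−0.21). The cause was not tested. Without 1 mouse, log2 fold changes ran from −0.85 to 1.86 for Cxcl5, −0.53 to 0.80 for Cxcl15, −0.95 to 0.41 for Cxcl10, −1.80 to 1.56 for Ccl5, −0.023 to 0.98 for Cxcl17, −0.81 to 1.16 for Ccl3, −0.25 to 0.49 for Cxcl16, −0.74 to 1.49 for Ccl4, −0.86 to 1.36 for Ccl9, −0.12 to 1.07 for Ccl20, −0.27 to 1.82 for Cxcl3, −0.76 to 2.37 for Cxcl13, −1.53 to 0.78 for Ccl27a, −0.35 to 0.059 for Ccl25 and −0.031 to 1.33 for Ccl2.

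Counts of ligands whose genotypes did not overlap, added after seeing the data, were 2 to 6 higher and 0 to 1 lower without 1 mouse (background 8.25 to 12.6% and 9.59 to 15.1%), with 6 higher without WT 1. A limit of 10 or 60 summed counts gave 31 or 28 detected ligands. Ligands near the floor, such as Ccl6 and Ccl8, could show only large differences at this depth.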
